A study of Mus musculus with 2 samples.

Results

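Histone genes were examined in mouse T cells on 2 Affymetrix oligonucleotide arrays, 1 for T cells exposed to the pigmented epithelium behind the retina, the retinal pigment epithelium (RPE), and 1 for control T cells without that exposure. The members were all probe sets, groups of short probes for 1 transcript, whose annotation named exactly 1 gene with a linker or core histone symbol. There were 25 such probe sets for 18 genes, of 34945 1-gene probe sets for 18193 genes in all. By class they covered 6 H1, 4 H2A, 3 H2B and 5 H3 genes, 9 of them replication-dependent and 9 variants, and no H4 gene. The members were chosen by gene symbol with no cutoff on a measured value, but the histone set itself was proposed with earlier results of these data known, so its values are a description.

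Both samples were labelled as male mice of C57 BL/6 background, 6 weeks old, and no treatment or allele beyond the RPE exposure was named. The title of the control sample named CD4 T cells, whereas the exposed sample was titled T cells and its tissue field named primary cultured RPE. How long the exposure lasted and how many mice gave each sample is not stated in the labels. Each group had a single array, so no replicate spread and no test exist for any value, and precision is limited by the number of arrays. A signal is the deposited intensity on a linear scale, and a difference is log2 of the RPE-exposed signal minus log2 of the control signal. A probe set was taken as measured where it lay above a floor, the median signal of its array (16 on the RPE-exposed and 15.9 on the control array). All 10 listed T-cell markers exceeded the floor in both samples, with differences from -0.082 to 0.48 (median -0.011, 4 higher and 6 lower in RPE-exposed T cells) and signals of 763.9 in RPE-exposed and 770.9 in control T cells for Cd3e and of 271.1 in RPE-exposed and 287.0 in control T cells for Cd4. The largest difference was that of Cd28, at 2319.2 in RPE-exposed and 1658.9 in control T cells. The summed signal of the 10 was 16163.7 in RPE-exposed and 15050.9 in control T cells. The CD8 co-receptor genes, looked at after the values were seen, were above the floor too, at 694.6 in RPE-exposed and 568.8 in control T cells for Cd8a and 983.9 in RPE-exposed and 706.4 in control T cells for Cd8b1, although the title of the control names CD4 T cells.

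Core histones H2A, H2B, H3 and H4 form the octamer around which DNA is wrapped, and linker histone H1 binds where the DNA enters and leaves it. Replication-dependent histone genes lie in clusters, are transcribed mainly in S phase, and give transcripts that end in a stem-loop in place of a poly(A) tail. Variant genes such as H3f3a, H3f3b, H2az1 and H2ax lie outside the clusters and are transcribed in other phases too. Proliferating T cells need histones to package newly copied DNA. Per the labels' protocols the cDNA of both samples was primed with oligo-dT, which binds poly(A) tails. The part of this priming in the values below was not tested.

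Promoters of 15 of the 18 genes were found in the RefSeq table of build GRCm38.p6, and 6 of these genes lay on chromosome 13. The promoters of H1f2 and H1f4 are shown because these genes gave the highest and the lowest difference among the members, and those of H1f6 and H1f10 for comparison with a germ-cell and a replication-independent H1 gene. Each runs 5′ to 3′ from 250 bases before to 50 bases after the annotated start. Capitals mark matches on either strand. The first motif searched was AAACACA, the H1 box known from H1 gene promoters. The second was CCAAT, a common promoter element. The third was TATATA, a core of the element that positions many transcription starts. The last was ATTTGCAT, the octamer known from H2B promoters. H1f2 lies at chr13:23738557-23738856 on the plus strand, H1f4 at chr13:23622509-23622808 on the minus strand, H1f6 at chr13:23695561-23695860 on the plus strand, and H1f10 at chr6:87981433-87981732 on the minus strand.
H1f2: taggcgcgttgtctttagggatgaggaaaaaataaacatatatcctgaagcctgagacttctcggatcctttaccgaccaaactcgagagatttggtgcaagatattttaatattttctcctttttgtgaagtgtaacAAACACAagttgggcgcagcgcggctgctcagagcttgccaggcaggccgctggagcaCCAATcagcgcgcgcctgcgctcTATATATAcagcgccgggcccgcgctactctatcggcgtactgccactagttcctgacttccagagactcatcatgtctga
H1f4: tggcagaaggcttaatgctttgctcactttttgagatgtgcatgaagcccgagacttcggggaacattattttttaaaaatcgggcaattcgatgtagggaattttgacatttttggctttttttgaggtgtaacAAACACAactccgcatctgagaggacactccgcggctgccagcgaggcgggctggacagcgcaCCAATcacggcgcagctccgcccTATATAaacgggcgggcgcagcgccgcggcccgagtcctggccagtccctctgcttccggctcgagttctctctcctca
H1f6: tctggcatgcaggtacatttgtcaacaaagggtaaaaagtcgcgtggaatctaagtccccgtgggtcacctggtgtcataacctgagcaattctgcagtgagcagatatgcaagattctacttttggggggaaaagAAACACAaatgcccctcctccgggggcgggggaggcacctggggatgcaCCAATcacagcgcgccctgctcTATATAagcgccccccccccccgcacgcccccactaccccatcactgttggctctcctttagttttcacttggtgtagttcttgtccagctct
H1f10: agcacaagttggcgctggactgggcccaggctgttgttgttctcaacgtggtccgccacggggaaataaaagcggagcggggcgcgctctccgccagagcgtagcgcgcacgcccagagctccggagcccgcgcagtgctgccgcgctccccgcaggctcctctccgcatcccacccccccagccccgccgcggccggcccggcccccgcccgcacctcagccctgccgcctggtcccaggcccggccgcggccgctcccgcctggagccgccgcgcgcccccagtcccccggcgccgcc

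H1f2, H1f4 and the testis-specific H1f6 held the first 3 motifs in the same order. In H1f2 the AAACACA began 112, the CCAAT 54 and the first of 2 overlapping TATATA matches 31 bases before the start, and in H1f4 these distances were 115, 52 and 29 bases. The variant H1f10 held none of the 4 motifs in this window. Of the H1 promoters not shown, H1f7 held none either and H1f8 held CCAAT only. All 3 motifs together occurred in 92 of 32851 promoters of the same length, or 0.28%. Among these were the other linker histone genes H1f3 and H1f5 and the core histone genes H2ac4 and H2bc14. Singly, AAACACA was found in 7.18% of all promoters, CCAAT in 37.4%, TATATA in 5.67% and ATTTGCAT in 1.74%. Besides H1f2, H1f4 and H1f6, the members with AAACACA included H3f3a, and those with TATATA included H3c4 and H3c11. Among the members ATTTGCAT occurred in H2bc18 and H3f3b. These matches are descriptions of the sequence. The part of these motifs in the values below was not tested.

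The median difference of the histone genes lay near that of all genes, but it depended on the probe sets used. One linker histone gene, H1f2, stood far from the rest. Of the 18 genes, 12 exceeded the floor in both samples and 6 in neither. In RPE-exposed T cells, 1 of the 12 was at least 2-fold higher, against 0.437% of the 10995 genes compared, and none was at least 2-fold lower, against 0.628%. At 1.5-fold, H1f2 and H3c4 were higher, against 3.12% of all genes, and H1f4 was lower, against 3.82%. These 3 of 12 genes stand beside 6.94% of all genes at least 1.5-fold different in either direction. The members' median difference was 0.036 (-0.018 without H1f2) and that of all genes -0.0096. With all probe sets of a gene averaged, the members' median was 0.17. It was 0.35 without shared probe sets, those with names ending in x, s or a. Positive differences were found for 6 of the 12 genes, and for 48.2% of all genes. Over probe sets in place of genes, 17 of 25 exceeded the floor in 1 or both samples. A positive difference was found for 11 of them, against 48.6% of all probe sets. Their median was 0.23 (0.10 without H1f2) and that of all probe sets -0.0078.

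**Figure D1:**
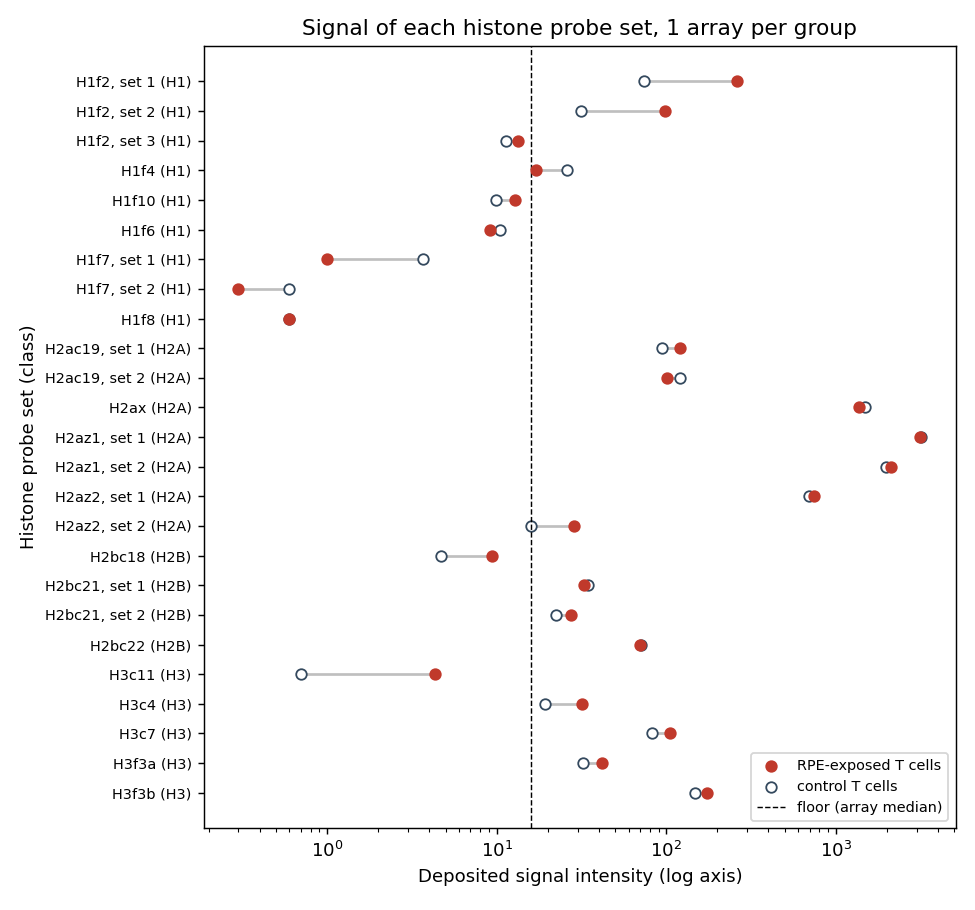
Deposited signal of each of the 25 histone probe sets (log axis) in RPE-exposed T cells (filled red) and control T cells (open), 1 array each, with the array median of 16 as a dashed line. The 2 upper probe sets of H1f2 show a wide gap, and H2az1, H2ax and H2bc22 lie almost on top of each other.

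H1f2 encodes H1.2, a replication-dependent linker histone known also for its release from the nucleus in apoptosis after DNA damage. Its signal was 262.4 in RPE-exposed and 73.7 in control T cells, 3.56-fold higher (difference 1.83). A second probe set gave 98.8 in RPE-exposed and 31.3 in control T cells, 3.16-fold higher (1.66). Both probe sets thus had the higher signal in RPE-exposed cells, with a mean difference of 1.75 ± 0.12 (SD over 2 probe sets, which are not replicates of cells or arrays). The third probe set was under the floor on both arrays, at 13.3 in RPE-exposed and 11.3 in control T cells. With all 3 averaged, H1f2 gave 1.17. The 2 probe sets above the floor have names ending in a, which marks probes shared by several transcripts of 1 gene. Without such probe sets, H1f2 had no signal above the floor.

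The difference of 1.83 was the highest of all 10995 genes compared. It lay outside the like-level range of -0.54 to 0.55, the central 95% of differences of genes in the same of 20 level bins. Its rank depended on how dim genes were treated, at 54 of 15707 genes with the floor at each array's 25th percentile and 811 of 18193 with no floor. With all probe sets of a gene averaged it ranked 14 of 11021. Hfe, an iron-regulating gene and the nearest neighbour of H1f2 in the RefSeq order that had a 1-gene probe set, was under the floor at 10.3 in RPE-exposed and 12.7 in control T cells. In bulk samples, a change in the share of cells of a type and a change in RNA per cell cannot be told apart, and this holds for each difference given here.

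The other linker histone genes were dim. H1f4, which encodes the replication-dependent H1.4, had a signal of 17.0 in RPE-exposed and 25.9 in control T cells, 1.52-fold lower (1 probe set, difference -0.61). Close to the floor, it fell inside the like-level range of -0.63 to 0.65, and gave -0.34 with an offset of 16 added to the signals. H1f2 and H1f4 therefore had opposite signs, and no spread between samples exists to set this against. H1f10, the replication-independent H1.10, stayed under the floor at 12.9 in RPE-exposed and 9.9 in control T cells. The germ-cell variants H1f6 and H1f7 of the testis and H1f8 of the oocyte had signals of 0.3 to 9.1 in RPE-exposed and 0.6 to 10.4 in control T cells, and all were under the floor.

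**Figure D2:**
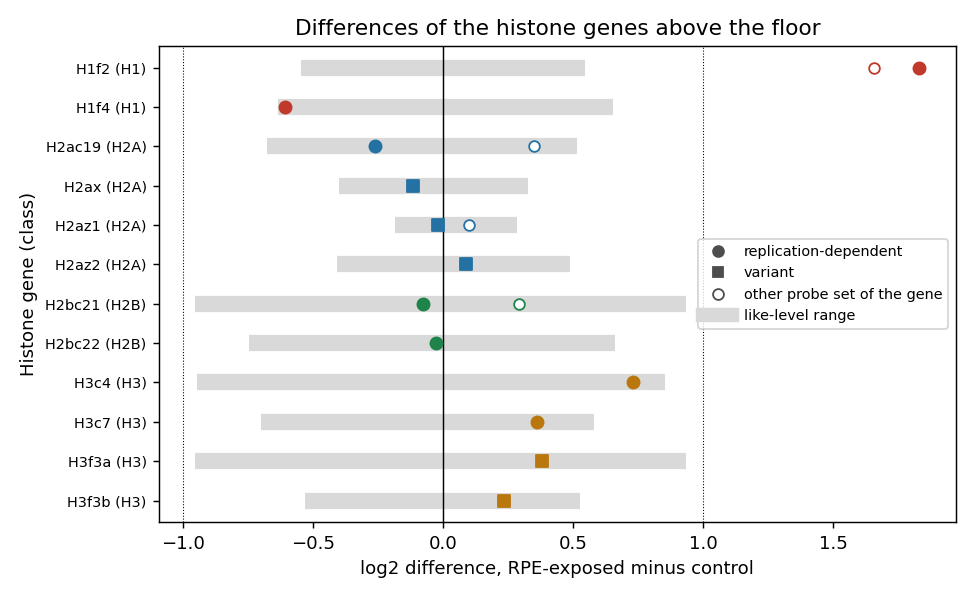
The log2 difference, RPE-exposed minus control, of the 12 histone genes above the floor, coloured by class, with filled circles for replication-dependent genes, squares for variants, open circles for other probe sets of the gene, and grey bars for the like-level range. H1f2 lies outside its bar and the other 11 genes lie inside theirs.

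The H2A variants were among the members with signals well over the floor and differed little. H2az1, which encodes the H2A.Z found at promoters, gave 3150.4 in RPE-exposed and 3189.8 in control T cells (-0.018), and its second probe set gave 2110.7 in RPE-exposed and 1968.7 in control T cells (0.10). H2az2, the second H2A.Z gene, gave 742.1 in RPE-exposed and 697.7 in control T cells (0.089). Its other probe set lay above the floor in RPE-exposed cells only, at 28.4, and on the floor in control cells, at 15.9 (0.84), and the average of both was 0.46. H2ax encodes H2A.X, the variant phosphorylated at DNA breaks, and gave 1372.1 in RPE-exposed and 1484.6 in control T cells (-0.11). All of these differences but that of the dim H2az2 probe set and the average with it were smaller than 0.14. This is the pooled SD between probe sets of 1 gene at mean signals of 500 or more (497 genes). It does not measure a spread between samples.

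The replication-dependent H2A and H2B members showed no common direction. H2ac19 of the H2A class gave 100.3 in RPE-exposed and 120.1 in control T cells (-0.26) with a probe set ending in x, which marks probes shared with other sequences. Its other probe set gave the opposite sign, 120.6 in RPE-exposed and 94.7 in control T cells (0.35), so the gene has no settled direction. H2bc21, an H2B gene, likewise gave 32.7 in RPE-exposed and 34.5 in control T cells (-0.077) with a first and 27.4 in RPE-exposed and 22.4 in control T cells (0.29) with a second probe set. H2bc22 gave 69.5 in RPE-exposed and 70.9 in control T cells (-0.029). H2bc18 was under the floor, at 9.4 in RPE-exposed and 4.7 in control T cells, and no fold is given. Histone genes of a class are close copies in sequence, so any of these probe sets may also report paralogs, and the values are uncertain as measurements of single genes.

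All 4 H3 genes above the floor had higher signals in RPE-exposed T cells, where 48.2% of all genes did, with a median difference of 0.37. H3c4, a replication-dependent gene, gave 31.9 in RPE-exposed and 19.2 in control T cells, 1.66-fold higher (0.73, or 0.44 with an offset of 16). H3c7, of the same kind, gave 105.0 in RPE-exposed and 81.8 in control T cells (0.36). The variant genes H3f3a and H3f3b both encode H3.3, which is placed into chromatin independently of replication. H3f3a gave 42.0 in RPE-exposed and 32.3 in control T cells (0.38), and H3f3b gave 173.2 in RPE-exposed and 147.4 in control T cells (0.23). Each of the 4 lay within its like-level range, and each rested on 1 probe set. Brighter probe sets that name several genes differed less. One naming 12 H3 genes, H3c4 and H3c7 among them, gave 974.9 in RPE-exposed and 914.5 in control T cells (0.092). The 5 shared by H3f3a, H3f3b and related sequences gave differences from 0.061 to 0.20. H3c11 was under the floor, at 4.3 in RPE-exposed and 0.7 in control T cells.

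Set side by side, the kinds of histone gene did not part clearly. The 7 replication-dependent genes above the floor had a median difference of -0.029 (-0.053 without H1f2). In RPE-exposed T cells 3 were higher and 4 lower, where 48.2% of all genes were higher. Of these 4, H2ac19 and H2bc21 had probe sets of opposite sign, and H2bc22 changed sign in 1 alternative. The median was positive in 6 of 9 alternatives, at up to 0.36. The 5 variants had a median of 0.089, with 3 higher and 2 lower, again where 48.2% of all genes were higher. None of the 5 reached 1.5-fold, against 6.94% of all genes, except H2az2 in the alternative that left only its dimmer probe set (0.84). Differences ran from -0.61 to 1.83 among the replication-dependent genes and from -0.11 to 0.38 among the variants. By class the medians were 0.61 for the 2 H1 genes of opposite sign, -0.066 for the 4 H2A, -0.053 for the 2 H2B and 0.37 for the 4 H3 genes.

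**Figure D3:**
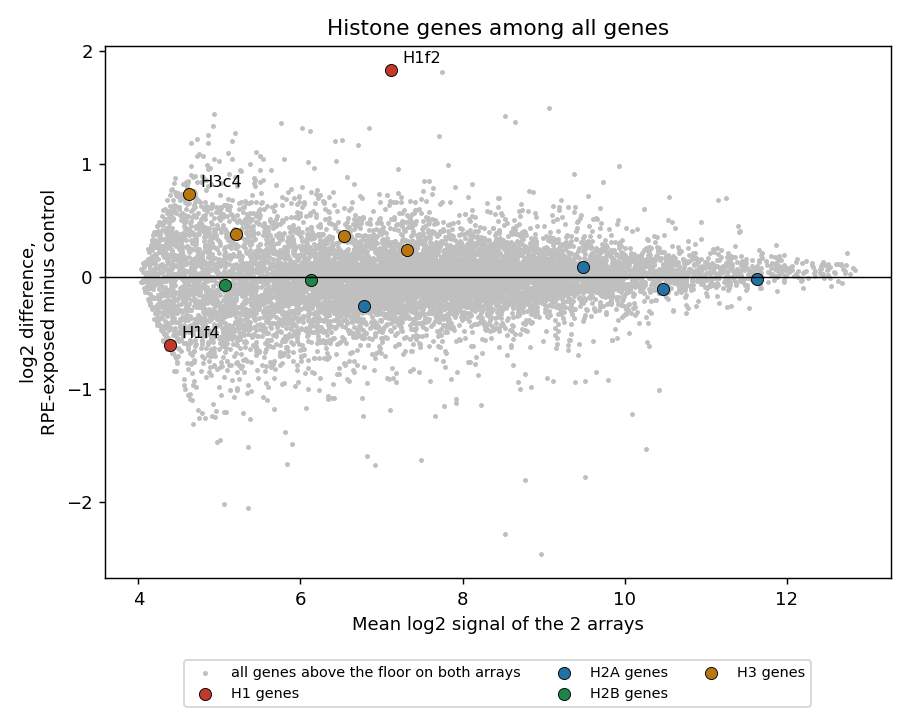
The log2 difference against the mean log2 signal for the 9999 genes that exceeded the floor in both samples (grey), with the 12 histone genes coloured by class. H1f2 sits at the upper edge of all genes, and the other histone genes lie within the cloud.

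Probe sets that named several genes, those for H4 included, were not members. There were 24 of these with at least 1 gene of the rule, 16 of which exceeded the floor in both samples. In RPE-exposed T cells 15 of the 16 had the higher signal, against 54.8% of the 595 probe sets naming several genes, with a median difference of 0.16 against 0.024. The share of 54.8% was taken over all signal levels and was not matched to the 16, many of them bright. Among 1-gene probe sets, the like-level range was -0.19 to 0.28 in the brightest level bin and -0.40 to 0.33 in the next. Whether signal level has a part in the count of 15 was not tested. Many of the 16 name the same genes and are not independent of each other. The 4 for H4, each naming 13 genes, gave differences from 0.029 to 0.74. The one with the highest signals gave 1155.2 in RPE-exposed and 1132.2 in control T cells, and the one with the largest difference gave 37.0 in RPE-exposed and 22.2 in control T cells. A probe set naming 11 genes, most of them H2B, gave 1371.3 in RPE-exposed and 1133.3 in control T cells (0.28), and one for 10 H2A genes gave 4875.9 in RPE-exposed and 4573.6 in control T cells (0.092). The 5 probe sets shared by H3f3a, H3f3b and related sequences gave 0.13 ± 0.066 (SD over probe sets). Of the 16, 2 reached 1.5-fold, against 7.39% of the probe sets naming several genes. They were the H4 probe set at 37.0 in RPE-exposed and 22.2 in control T cells and one for H3c10 and H3c2 at 34.4 in RPE-exposed and 22.2 in control T cells.

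**Figure D4:**
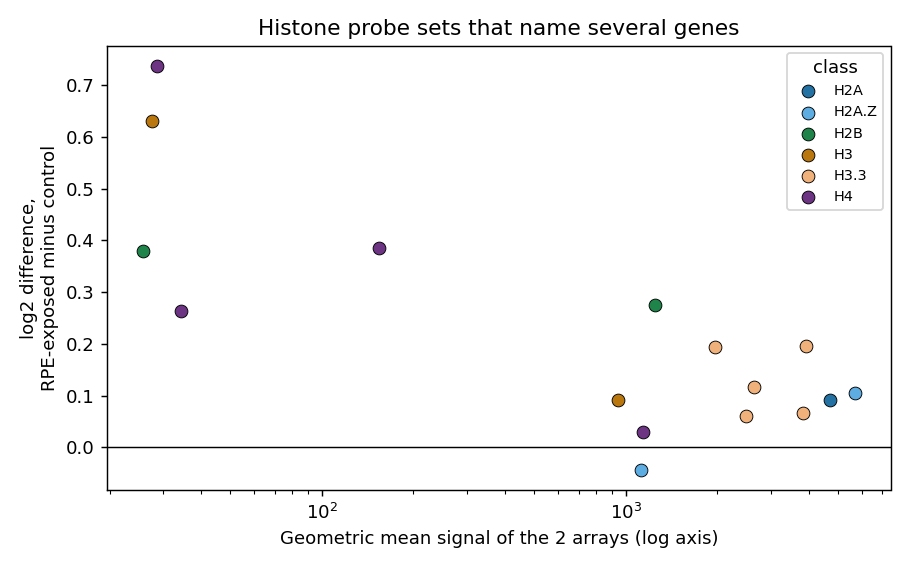
The log2 difference, RPE-exposed minus control, against the geometric mean signal (log axis) for the 16 histone probe sets above the floor that name several genes, coloured by class. All but 1 H2A.Z probe set lie above 0, and the highest differences, up to 0.74, are at low signals.

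Of 5 listed histone genes outside the rule, 3 exceeded the floor and differed by at most 0.19. The centromeric H3 variant gene Cenpa gave 1354.8 in RPE-exposed and 1330.9 in control T cells. Macroh2a1, which encodes an H2A variant with a large extra domain, gave 1499.9 in RPE-exposed and 1494.4 in control T cells, and H2aj gave 548.7 in RPE-exposed and 482.0 in control T cells (0.19).

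Genes for the transcription of histone genes, the processing of their transcripts and the carriage of histone proteins had small median differences. Of 17 transcription and processing genes, 10 had positive and 7 negative differences, against 48.2% positive among all genes, with a median of 0.041. Slbp, the stem-loop binding protein of histone mRNA, gave 1930.9 in RPE-exposed and 1849.7 in control T cells (0.062). Zfp473, a zinc finger protein of the histone pre-mRNA processing complex, gave 55.3 in RPE-exposed and 103.2 in control T cells (-0.90) and was the only one of the 17 past 1.5-fold, where 6.94% of all genes were. Hinfp, an activator of H4 gene transcription, gave 78.3 in RPE-exposed and 62.1 in control T cells (0.33), and Casp8ap2, a protein of the histone locus body, 871.3 in RPE-exposed and 733.1 in control T cells (0.25). Of 24 chaperone genes 17 had positive differences, again against 48.2% of all genes, with a median of 0.054, and none reached 1.5-fold. Among them Daxx, which deposits H3.3, gave 382.4 in RPE-exposed and 309.3 in control T cells (0.31), and Asf1a, a carrier of H3 and H4, gave 508.7 in RPE-exposed and 436.1 in control T cells (0.22). The lowest difference of the chaperone genes was that of Supt6, at 123.0 in RPE-exposed and 143.9 in control T cells (-0.23). Of 31 S-phase genes, which include Slbp again, 26 had positive differences, where 48.2% of all genes did. Their median was 0.10, with a range from -0.19 to 0.38. The share of 48.2% beside these lists was taken over genes of all signal levels and was not matched to the signals of the listed genes. The part of S-phase genes in the histone values was not tested.

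Markers of other cell types differed between the samples. Of 10 B-cell markers above the floor 9 were lower in RPE-exposed T cells, against 5670 of the 10995 genes compared. Their median was -0.60, with a summed signal over all 11 on the array of 1440.9 in RPE-exposed and 2219.2 in control T cells. Of 12 macrophage and dendritic-cell markers 9 were lower, again against 5670 of the 10995 genes. Their median was -0.42, and the 3 higher ones differed by at most 0.16. The summed signal over all 13 was 3270.4 in RPE-exposed and 4296.2 in control T cells. Most of this sum came from Cd74, at 1250.3 in RPE-exposed and 1448.2 in control T cells, and H2-Aa, at 1080.8 and 1437.6. The sum therefore says little of the other markers on the list. Of 12 RPE markers 10 were under the floor on both arrays, Rpe65 at 2.3 in RPE-exposed and 5.3 in control T cells, and their summed signal was 78.9 in RPE-exposed and 91.6 in control T cells. No marker of these lists was at 0 on either array. The part of these cells in the histone values was not tested.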

How the data were processed

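RNA from 1 sample of RPE-exposed and 1 of control T cells was labelled with biotin and hybridised to 1-colour arrays, per the labels' protocols. The authors deposited linear intensities, 1 signal per probe set. The labels name no summarization software. Trimmed by 2% at each end, the mean signal was 100.0 in both samples, so no further scaling was applied. Of 45101 probe sets, 64 were controls and were left out.

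Gene names came from the platform annotation. Where a gene had several probe sets, the one with the highest mean log2 signal stood for it. Signals under the floor, each array's median, were set to it, and the 10995 genes above it on at least 1 array were compared by counts past 1.5-fold and 2-fold and by medians. Every member gene above the floor was named, and up to 4 genes of each other list. The members and gene lists were chosen with earlier results of these data known. The steps were tested on simulated data in which only brighter genes carried changes, all of them large. That test does not cover dim genes or small differences. Alternatives changed the floor, offset, scaling and choice of probe sets. Python 3.11.15, numpy 2.4.6, pandas 2.3.3 and matplotlib 3.10.9 were used.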

Additional observations from a re-analysis of the deposited data

How the results depend on the processing

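No paired analysis was possible because each group had 1 array. Without a spread between arrays, a difference was counted as moved where it shifted by more than 0.24, the pooled SD between probe sets of 1 gene. The number of histone genes at least 1.5-fold different, 3 as reported, was 1 with a floor at each array's 75th percentile, 1 with an offset of 16 and 6 with no floor. The median over histone genes moved to 0.35 when shared probe sets (names ending in x, s or a) were left out, and ran from -0.018 to 0.35 over 9 alternatives. The same setting gave 0.35 for H2A, 0.29 for H2B and 0.35 for replication-dependent genes, which were at 0.36 with no floor. The H1 median rests on 2 genes. It was 0.095 and 1.49 with floors at the 25th and 75th percentile, -0.096 with no floor, 0.28 when a gene's probe sets were averaged, and -0.61, from H1f4 alone, both without the shared probe sets and without H1f2, a setting added after the data were seen. The H3 median stayed between 0.20 and 0.41, and that of variants between 0.00 and 0.31. H1f2 ran from 1.17 to 1.85 over the 7 alternatives that gave it a value. H2ac19, H2bc21, H2az1 and H2bc22 changed sign in at least 1 alternative. H2az2 gave 0.46 averaged and 0.84 without shared probe sets. The median of replication-dependent genes was positive in 6 of 9 alternatives. Low signal left 6 of 18 genes under the floor, with no measured difference.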
